A study of Homo sapiens with 11 samples.

Results

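MSMP encodes a small secreted protein, microseminoprotein, prostate associated, and its RNA was followed across 11 PC-3 tumours grown in mice. It was 1 of the 25590 genes in the deposited tables and was chosen by its measured level, its rank and its difference between the treatments. Its level, share, rank, variation and difference between treatments are therefore given as a description, without a test. PC-3 is an established human prostate cancer cell line from a bone metastasis that grows without androgen. The cells were injected subcutaneously in matrigel into athymic nude mice (Crl:NU-Foxn1nu), all male and 8 weeks old, which lack mature T cells but keep monocytes and other myeloid cells. From day 7 on, 5 mice received PBS and 6 received A2M*, the activated form of the protease inhibitor alpha-2-macroglobulin and a ligand of the receptor LRP1, by intraperitoneal injection at 5.6 mg per 20 g body weight. The sources give 31 days both as the length of treatment and as the end of the experiment. Each tumour gave 1 library, so the spread between tumours of a group includes biological and technical error. The tumours are named by group and by the number in their label after a T, PBS tumours T123 to T127 and A2M* tumours T128 to T132 and T112.

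The microseminoproteins are a small family of cysteine-rich secreted proteins, whose best-known member, MSMB (beta-microseminoprotein), is an abundant product of the healthy prostate. The MSMP protein was found in the culture medium of PC-3 cells, from which its other name, PC3-secreted microprotein, derives. It is known as a chemoattractant of monocytes and lymphocytes that acts through CCR2, the receptor that also binds the chemokine CCL2.

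In the GRCh37 annotation MSMP lies on the minus strand of chromosome 9, between 35752987 and 35756610. Transcript MSMP-202 (chr9:35752987-35754273) has 3 exons of 277, 109 and 291 bases, and its 677 exon bases equal the MSMP length implied by the deposited RPKM values. Its coding part has 417 bases, or 139 codons. The letters just upstream of its start site are shown because they hold a TATAAA motif, the core promoter element that the TATA-binding protein reads. The 30 bases below run from 41 to 12 bases before the RefSeq start site (GRCh38.p14, chr9:35754288-35754317, minus strand) and are written 5′ to 3′ along the coding strand, with the motif in capitals.

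MSMP upstream: cagggtcctcacttTATAAAcatccccagc

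The motif began 27 bases before the start. Within 250 bases upstream, TATAAA stood on the coding strand of 6.80% of 35116 RefSeq promoters and on either strand of 10.7%, the reverse form at MSMP overlapping the forward one. Among the 100 most counted genes of these tumours, 76 had a promoter entry, and 11 of those held TATAAA on either strand. On both strands, the 250 bases at MSMP held no CCAAT (in 32.0% of promoters), no GGGCGG (42.6%), and neither ACGTG (18.5%) nor GCGTG (32.2%), the 5-base cores of the hypoxia response element. TGANTCA, the AP-1 motif, was present 1 time, from 142 bases before the start (6.57% of promoters). These matches describe the letters in this window and not the binding of any factor.

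Human-assigned counts per tumour ranged from 16958533 to 35874381. By reads, MSMP took more than any other gene on average, with a mean share of 0.639% of all counts (SD 0.0719, n = 11). The 5 PBS tumours T123, T124, T125, T126 and T127 held 203421, 223961, 227284, 159101 and 288524 MSMP counts, or 0.681%, 0.691%, 0.661%, 0.611% and 0.804% of their totals. The A2M* tumours T128, T129, T130, T131, T132 and T112 held 196910, 95769, 152690, 174887, 141875 and 175045 counts, or 0.593%, 0.565%, 0.595%, 0.649%, 0.636% and 0.545%. PBS tumour T127 was the highest and A2M* tumour T112 the lowest, and the groups overlapped. Even in A2M* tumour T112, 1 read in 184 came from MSMP. Counting error was small beside the spread between tumours. In A2M* tumour T129, which had the fewest counts, the exact 95% binomial (Clopper-Pearson) interval of the share was 0.561% to 0.568%, and in PBS tumour T127 it was 0.801% to 0.807%. These intervals cover counting error only, since reads without molecular identifiers are not independent molecules.

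**Figure D1:**
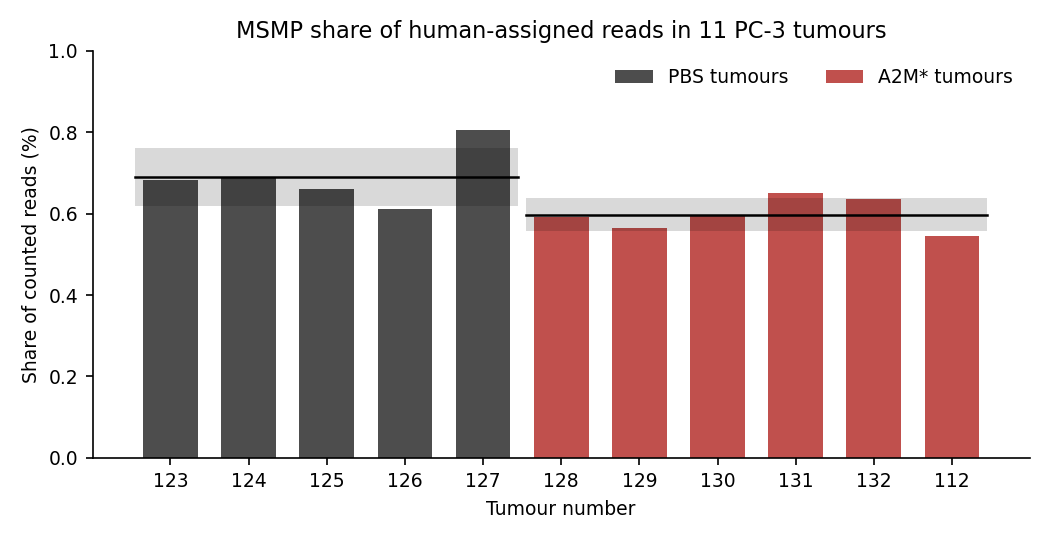
MSMP share of all counted human reads, in percent, in each of the 11 tumours (bars, axis from 0). Lines give the mean of each group and grey bands 1 SD on either side. The PBS tumours lie between 0.611% and 0.804% and the A2M* tumours between 0.545% and 0.649%, with an overlap.

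In RPM, the counts of a gene per 1e+06 counts of the tumour, which does not correct for transcript length, MSMP averaged 6391 RPM (SD 719, n = 11) and ranked first in 7 tumours and second in the other 4. EEF1A1, the translation elongation factor, averaged 5764 RPM and was above MSMP in PBS tumours T125 (6692 RPM against 6605) and T126 (6260 against 6109) and in A2M* tumour T129 (5677 against 5647). PLAU, the urokinase-type plasminogen activator, was above MSMP in A2M* tumour T112 (8307 RPM against 5448). The next genes were MUC5B, a gel-forming mucin, at 4446 RPM, and GAPDH, a glycolytic enzyme, at 3446 RPM, both below MSMP in all 11 tumours. Further down stood ACTB and ACTG1, the cytoplasmic actins, at 3156 and 2811 RPM, the nuclear long non-coding RNA NEAT1 at 2933 RPM, APP, the amyloid precursor protein, at 2639 RPM, and FLNA, filamin A, at 2572 RPM. The reads were spread widely otherwise, as the 10 most counted genes together took 3.94% of all counts and 50% of the counts came from 1242 genes.

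Per kilobase of transcript (RPKM), MSMP ranked first in all 11 tumours. The PBS tumours, in the order T123 to T127, had 10065, 10204, 9756, 9024 and 11880 RPKM of MSMP. The A2M* tumours, in the order T128 to T132 and then T112, had 8754, 8342, 8785, 9592, 9393 and 8047 RPKM. The mean was 9440 RPKM (SD 1062, n = 11), and MSMP took between 2.05% and 2.90% of the summed RPKM of a tumour. Its level was between 1901 and 3109 times the median RPKM of the genes with at least 1 read.

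The second gene by RPKM was MIR6723 in every tumour, a microRNA gene of only 89 bases, at a mean of 5222 RPKM. So short a length raises the RPKM for a given number of reads, and MIR6723 was not among the 10 most counted genes. Whether its reads came from the microRNA was not tested. MSMP exceeded MIR6723 between 1.15 times, in A2M* tumour T132, and 2.28 times, in A2M* tumour T131. Among the genes that follow, several encode small and abundant proteins. TMSB4X and TMSB10, the actin-binding thymosins beta-4 and beta-10, had means of 3761 and 2266 RPKM. The ribosomal protein genes RPL41 and RPL30 had 2481 and 1979 RPKM, and S100A6, a calcium-binding protein, had 2241 RPKM. PLAU at 1953 RPKM and GAPDH at 1821 RPKM closed the first 10, and MSMP was 2.51 times TMSB4X and 5.18 times GAPDH on average.

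**Figure D2:**
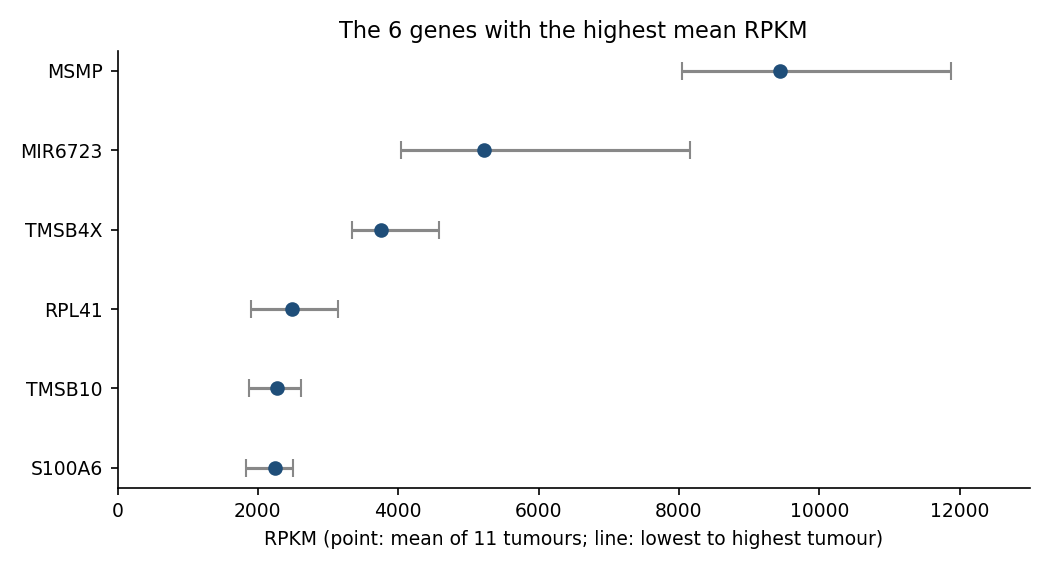
The 6 genes with the highest mean RPKM over the 11 tumours (points) and the range from the lowest to the highest tumour (lines). The range of MSMP starts at 8047 RPKM, and MIR6723 reaches 8152 RPKM in its highest tumour, A2M* tumour T132, where MSMP had 9393 RPKM.

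After scaling by the trimmed mean of M-values (TMM), MSMP had 7019 ± 779 CPM (counts per 1e+06 scaled counts) in PBS tumours (SD, n = 5) and 5887 ± 320 in A2M* tumours (SD, n = 6). The model estimate of the difference, A2M* against PBS, was a log2 fold change of -0.25 (SE 0.087), equal to -16.1%. By RPM, 4 of 6 A2M* tumours lay below every PBS tumour and 4 of 5 PBS tumours lay above every A2M* tumour. The overlap came from PBS tumour T126, which was lower than A2M* tumours T131 and T132. Since the difference in MSMP was part of what singled the gene out, no p is given for it. In bulk RNA, a smaller share of MSMP-expressing cells and less MSMP RNA per cell cannot be told apart.

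As background, no gene of the 16630 tested passed an adjusted p of 0.01 with the edgeR quasi-likelihood test (background 0%), and the smallest adjusted p was 0.599. With limma-voom 0 genes passed as well, and 1 gene passed with DESeq2 and 1 with the edgeR likelihood ratio test. At an unadjusted p under 0.05, 1178 genes differed (7.08%), 3.55% being higher and 3.53% lower in A2M* tumours. The median log2 fold change over all tested genes was -0.0021, and 50.6% of them had a negative one. Unadjusted p values and directions named below are read against these shares. How many of all genes did not overlap between the groups was not counted.

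The coefficient of variation of MSMP (CPM) was 11.1% between PBS tumours and 5.44% between A2M* tumours. Among the 100 most counted genes the medians were 10.6% and 10.8%. Of those genes, 56 varied less than MSMP between PBS tumours and 7 varied less between A2M* tumours. The spread in the PBS group rested on PBS tumour T127, without which it was 7.10%. In the model, the variation of MSMP beyond counting error (biological coefficient of variation) was 10.1%, below the 12.8% of the trend for genes at its level.

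The region around MSMP was examined because its level can be set against genes that share its stretch of chromosome. RGP1, a subunit of the exchange factor complex for RAB6, lies on the opposite strand (GRCh37, chr9:35749284-35758582), and its last annotated exon covers all 677 exon bases of MSMP-202. The deposited values imply a length of 1717 bases for RGP1 against 7028 exon bases in this annotation, so the gene models the authors counted differed from it here. The library kit does not mark strand and the strand setting of the counting is not given in the sources used here, so reads of MSMP and of an overlapping RGP1 exon could not be separated by strand. RGP1 itself had between 280 and 556 counts, and MSMP had between 342 and 519 times as many in the same tumour. How reads shared by overlapping genes were counted was not tested.

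Within 250 kb on either side, 42 genes of the annotation lay beside MSMP, 23 of them were in the tables and 19 passed the filter on low counts. Their median level was 2.89 RPKM over the 23 genes, and 8 were under 1 RPKM. The highest was GBA2, the non-lysosomal glucosylceramidase, 3762 bases away at 163.5 RPKM, which MSMP exceeded 57.7 times on average. TPM2 (tropomyosin beta) followed with 43.2 RPKM, TLN1 (talin, which links integrins to actin) with 39.6, CA9 (carbonic anhydrase IX, a hypoxia-induced membrane enzyme) with 36.6, CREB3 (a membrane-bound transcription factor) with 29.3, HINT2 (a mitochondrial hydrolase) with 27.2 and TESK1 (a kinase of the actin cytoskeleton) with 23.6 RPKM. RUSC2, TMEM8B, CCDC107, NPR2, ARHGEF39, RMRP and CD72 lay between 6.02 and 1.78 RPKM. SPAG8, HRCT1, FAM166B and FAM221B stood at 0.881, 0.837, 0.347 and 0.165 RPKM. SIT1, OR2S2 and OR13J1 had at most 2 counts in any tumour and MIR4667 had 0 counts in all 11.

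**Figure D3:**
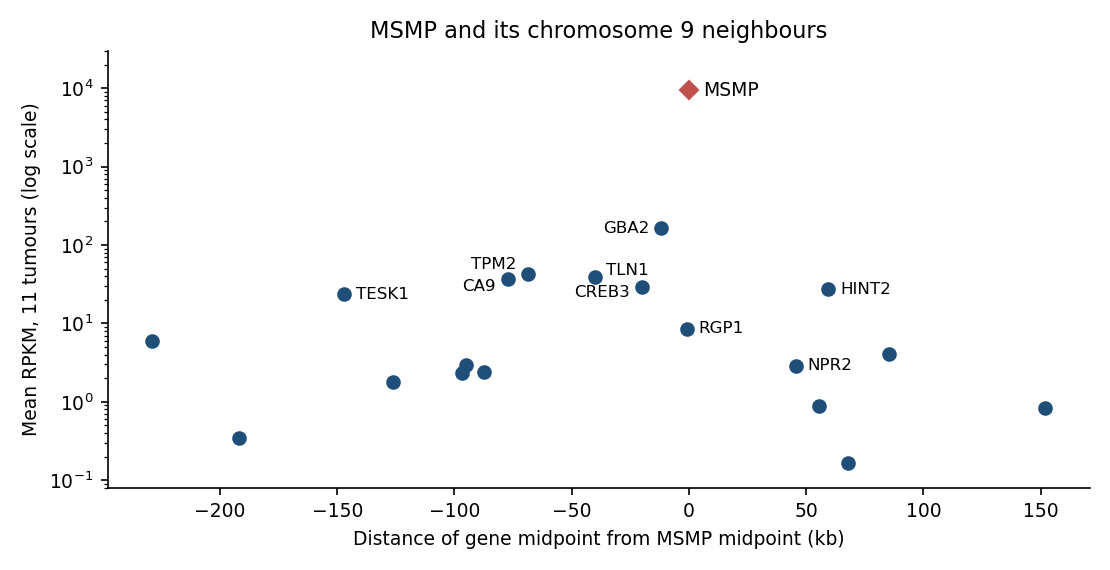
Mean RPKM over the 11 tumours (log axis) of MSMP and the 19 tested genes within 250 kb, against the distance of each gene's midpoint from that of MSMP in kb. MSMP stands at 9440 RPKM and the next gene, GBA2, at 163.5 RPKM.

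Of the 19 tested neighbours, 13 were lower in A2M* tumours, beside 50.6% of all tested genes. Their median log2 fold change was -0.089, and 0 passed the adjusted threshold. At an unadjusted p under 0.05, 3 were lower and none was higher, beside 3.53% and 3.55% of all tested genes. GBA2 had 182, 165, 184, 192 and 189 RPKM in PBS tumours T123 to T127, and 133, 149, 154, 135, 190 and 124.6 RPKM in A2M* tumours T128 to T132 and T112. All A2M* tumours but T132 lay below every PBS tumour. The log2 fold change of GBA2 was -0.35 (SE 0.095, adjusted p = 0.599, edgeR). CA9 had a log2 fold change of -0.83 (SE 0.312, adjusted p = 0.642), with 29.6 to 62.5 RPKM in PBS and 11.7 to 48.3 RPKM in A2M* tumours. FAM221B had at most 24 counts and a log2 fold change of -0.62 (SE 0.203, adjusted p = 0.640). NPR2, a natriuretic peptide receptor, was among the 6 in the other direction, at 0.50 (adjusted p = 0.710). Without A2M* tumour T132 the count at an unadjusted p under 0.05 was 5, and without PBS tumour T125 it was 2.

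MSMB, the other microseminoprotein in the tables, was near the lower end of what was measured. It had 13, 18, 13, 11 and 16 counts in PBS tumours T123 to T127, which is 0.880, 1.12, 0.763, 0.853 and 0.901 RPKM. The A2M* tumours T128 to T132 and T112 had 10, 4, 7, 9, 9 and 6 counts, or 0.608, 0.477, 0.551, 0.675, 0.815 and 0.377 RPKM. Only A2M* tumour T132 reached into the PBS range. Its log2 fold change was -0.68 (SE 0.224, unadjusted p = 0.0109, adjusted p = 0.640, edgeR). The unadjusted p of MSMB no longer passed 0.05 with DESeq2, and MSMB did not pass a filter of at least 10 counts in every tumour. In every tumour, MSMP RNA per kilobase was between 9097 and 21331 times that of MSMB.

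Further genes of the differentiated luminal prostate were low as well. KLK3, which encodes prostate-specific antigen, had 0 counts in all 11 tumours, where 3 counts corresponded to between 0.0836 and 0.177 RPM, and KLK2 had 1 count in 1 tumour. KLK4, FOLH1, AZGP1 and ACPP (prostatic acid phosphatase) lay between 0.182 and 0.905 RPKM, and TGM4 at 1.44 RPKM. STEAP2, SLC45A3 (prostein) and the protease TMPRSS2 were higher, at 6.70, 9.40 and 14.6 RPKM. Of the 12 luminal genes, 9 were tested and 0 passed the adjusted threshold. At an unadjusted p under 0.05, 2 were lower, beside 3.53% of all tested genes. They were MSMB and SLC45A3 (log2 fold change -0.39, adjusted p = 0.642, edgeR). The count was 1 with DESeq2, with a filter of at least 10 counts in every tumour or without PBS tumour T125, and 4 without A2M* tumour T128 or T132. The median log2 fold change was -0.0053, near that of all genes.

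The CCR2 side of the axis was nearly empty in human-assigned reads. CCR2 itself had at most 3 counts in any tumour and 0 in 4 of 11. The host's own receptor would appear among mouse reads, which were not analysed here. The chemokine CCL2 averaged 0.707 RPKM and CCL16 0.383 RPKM, while CCL7, CCL8 and CCL13 had 0 counts in all tumours. MSMP exceeded the summed RPKM of these 5 other CCR2 ligands between 3042 and 17409 times.

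CCL2 had between 6 and 17 counts in PBS and between 4 and 58 counts in A2M* tumours, that is 0.261 to 0.702 RPKM and 0.300 to 2.42 RPKM, which overlap. It was the only one of the 2 tested ligands higher at an unadjusted p under 0.05 (log2 fold change 1.31, SE 0.498, unadjusted p = 0.020, adjusted p = 0.643, edgeR), and that count was 0 without A2M* tumour T128, T130, T131 or T112. It was also 0 with limma-voom, and with a filter of at least 10 counts in every tumour, which CCL2 did not pass. For CCL16 the log2 fold change was 0.095, and without A2M* tumour T128 it was -0.053.

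Of 15 CC chemokine receptors, 7 were tested and 0 differed at an unadjusted p under 0.05, with a median log2 fold change of -0.081. The count was 1 with limma-voom, 1 with the edgeR likelihood ratio test and 2 with no filter on low counts. The highest was ACKR3, a scavenging receptor for CXCL12, at 11.8 RPKM, with 7.48 to 21.7 RPKM in PBS and 5.69 to 14.6 RPKM in A2M* tumours (log2 fold change -0.63, adjusted p = 0.710). ACKR2, a scavenger of inflammatory CC chemokines including CCL2, followed at 5.27 RPKM, then CCRL2 at 3.09 and CCR1 at 1.80 RPKM. CCR6 had 0.725, CCR3 0.349, CCR10 0.230, CCR7 0.176 and ACKR4 0.123 RPKM. CCR4, CCR9 and ACKR1 had at most 3 counts in any tumour and CCR8 had 0 in all. Without PBS tumour T126, 2 receptors differed at an unadjusted p under 0.05, and 1 did without PBS tumour T123 or A2M* tumour T128, T129 or T132.

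The 20 genes of signalling below chemokine receptors were all tested, and 0 differed at an unadjusted p under 0.05 (median log2 fold change -0.0032). Without 1 of PBS tumours T123 and T127 or A2M* tumour T128 the count was 1, and without PBS tumour T126 or A2M* tumour T132 it was 2. The G protein subunits GNB1, GNAI2 and GNB2 were the highest, at 201.7, 121.2 and 102.1 RPKM.

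Since MSMP is secreted, it was set beside 55 other genes for secreted proteins. MSMP alone exceeded the summed RPKM of all 55 in 10 of 11 tumours, with a ratio between 0.900 and 1.49 and a mean of 1.19. MIF is 1 of the 55 and is listed at 0 counts in every tumour, so it added nothing to the sum. Why it had 0 counts was not tested. The ratio depends on which genes the list holds. The highest were PLAU at 1953 RPKM, LGALS1 (galectin-1, a sugar-binding protein) at 1162 RPKM and DKK1 (an inhibitor of WNT signalling) at 1027 RPKM. SLPI, a secreted inhibitor of leukocyte proteases, had 378 RPKM.

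Of the 54 secreted factors tested, 6 were lower and 0 higher in A2M* tumours at an unadjusted p under 0.05. Over all tested genes these shares were 3.53% and 3.55%. Of the 54, 0 passed the adjusted threshold (median log2 fold change -0.029). LGALS1 had 1129 to 1418 RPKM in PBS and 976 to 1259 RPKM in A2M* tumours (log2 fold change -0.28, SE 0.091, adjusted p = 0.640). ANGPTL4, a secreted inhibitor of lipoprotein lipase, had 38.4 to 68.9 RPKM in PBS and 9.77 to 35.1 RPKM in A2M* tumours (log2 fold change -1.31, SE 0.302, adjusted p = 0.599). STC2 (a glycoprotein hormone) and SLPI had log2 fold changes of -0.47 and -0.42, and the other two were GDF15 and ADM, at -0.79 and -0.61. The count was 2 without PBS tumour T125, 3 without A2M* tumour T131 and 4 without A2M* tumour T130. It also rose, to 8 without PBS tumour T123 and to 9 without A2M* tumour T132.

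The machinery that folds and exports such proteins was described next. Its 34 genes were all tested, with 0 past the adjusted threshold and a median log2 fold change of 0.022. At an unadjusted p under 0.05, 4 were higher and 2 lower, beside 3.55% and 3.53% of all tested genes. The endoplasmic reticulum chaperones CALR (calreticulin) and HSP90B1 (GRP94) had 1059 and 648 RPKM. HSPA5 (GRP78, the main chaperone of this compartment) had 302 to 363 RPKM in PBS and 353 to 588 RPKM in A2M* tumours, with a log2 fold change of 0.33 (SE 0.121, adjusted p = 0.642). Its co-chaperone DNAJB11 had a log2 fold change of 0.26 (SE 0.092, adjusted p = 0.640). DNAJB11 had 65.5 to 71.6 RPKM in PBS and 73.6 to 108 RPKM in A2M* tumours. ERO1L and P4HB, which together form disulfide bonds, were in the other direction at -0.38 and -0.19 (adjusted p = 0.648 and 0.697). ERP44, which retains ERO1 proteins, and ERO1LB were the remaining higher ones, at 0.14 and 0.24. The count of 6 was 2 without PBS tumour T125 or A2M* tumour T131, and 3 without PBS tumour T123 or T124 or A2M* tumour T130. Without A2M* tumour T112 it was 8.

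Hypoxia targets were examined as a measure of the state of the tumours. All 12 had a negative log2 fold change, beside 50.6% of all tested genes, with a median of -0.65. Of the 12, 8 were lower at an unadjusted p under 0.05, beside 3.53% of all tested genes, and 0 passed the adjusted threshold. CA9 and ANGPTL4 above were among the 8, as were PDK1, a kinase that holds back pyruvate oxidation (log2 fold change -0.77, SE 0.192, adjusted p = 0.599), and BNIP3, a mitophagy receptor (-0.58, SE 0.184, adjusted p = 0.640). PDK1 had 9.55 to 14.8 RPKM in PBS and 4.35 to 9.47 RPKM in A2M* tumours. The count was 5 with limma-voom, 4 without PBS tumour T125 and 5 without PBS tumour T124 or A2M* tumour T128 or T131. It was 10 without PBS tumour T123 and 9 without A2M* tumour T132. The 10 proliferation genes had a median log2 fold change of 0.038, and 0 differed at an unadjusted p under 0.05. Over the 162 distinct genes tested from all lists, 22 (13.6%) differed at an unadjusted p under 0.05, 6 higher and 16 lower, beside 7.08% over all genes. The lists were chosen with earlier results of these data known, so this share cannot be read as an excess over the background. Of the 22, 8 were hypoxia targets. The count of 22 was 9 without PBS tumour T125, 11 without A2M* tumour T131 and 30 without A2M* tumour T132.

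**Figure D4:**
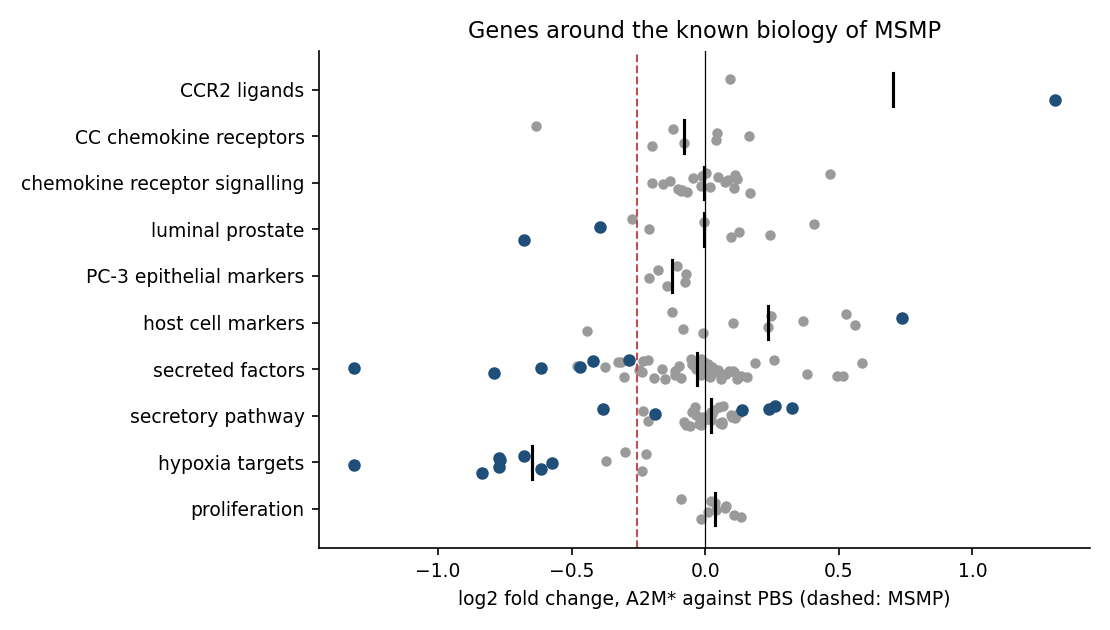
Log2 fold change, A2M* against PBS tumours, of each tested gene in 10 gene lists (points), with genes at an unadjusted p under 0.05 in blue, the list median as a black bar and MSMP (-0.25) as the dashed line. The lists other than CCR2 ligands and hypoxia targets have medians between -0.12 and 0.23, and the 12 hypoxia targets all lie below 0 with a median of -0.65.

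Markers of the tumour cells and of other cells were checked beside MSMP. The epithelial and PC-3 genes KRT19, KRT18, VIM, KRT8, EPCAM and CDH1 had 394, 316, 291, 245, 166 and 79.5 RPKM, and MSMP exceeded their sum between 5.38 and 7.90 times. All 6 had a negative log2 fold change, between -0.21 and -0.072, beside 50.6% of all tested genes. Of the 6, 0 passed an unadjusted p of 0.05, although 2 did without A2M* tumour T128 and 1 without PBS tumour T123. Of 15 markers of fibroblasts, endothelium and immune cells, 11 were tested. COL1A1, a fibrillar collagen chain, led with 89.0 RPKM, followed by CD68 at 13.1 and COL3A1 at 5.38 RPKM. The defining fibroblast markers LUM and DCN had at most 5 and 3 counts. The summed RPKM of the 15 ran from 78.5 to 139 in PBS and from 77.9 to 182 in A2M* tumours. Its mean was 120.2 RPKM, most of which was COL1A1. Of the 11 tested markers, 7 had a positive and 4 a negative log2 fold change, with a median of 0.23. The lowest was PTPRC at -0.44. COL1A2 was the only marker at an unadjusted p under 0.05 (log2 fold change 0.73, adjusted p = 0.699, edgeR). That count was 0 with limma-voom, 0 without PBS tumour T123, T125 or T126 or A2M* tumour T129, T131, T132 or T112, and 3 without A2M* tumour T128.

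The relation of MSMP (log2 CPM) to 4 other measures of a tumour is given over the 11 tumours as a description, without a test, since it rests on the MSMP values that chose the gene and every measure of a tumour comes from 1 library. For the total counts of a tumour, Pearson's r was 0.566 and Spearman's rho 0.582. It was 0.331 with each group centred on its mean and 0.544 without A2M* tumours T129 and T132, the farthest from the median. For the summed host cell markers, mostly COL1A1, r was -0.0885 and rho -0.182. It was 0.334 after centring and 0.0978 without A2M* tumours T112 and T128. For the hypoxia score, the mean z-score of the 12 hypoxia targets, r was 0.439 and rho 0.491. It was 0.489 without A2M* tumours T131 and T128, and -0.00895 after centring. For the secretory pathway score r was 0.0331 and rho 0.145, with 0.224 after centring and -0.201 without A2M* tumour T131 and PBS tumour T124.

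Finally, the genes whose level followed MSMP most closely over the 11 tumours were listed from the 11081 genes whose mean log2 CPM reached 3. The measure was Pearson's r of log2 CPM, which is a description only, because all values of a tumour share 1 library and MSMP itself ranged only from 12.42 to 13.00. The median r over these genes was 0.0027, 15 genes exceeded 0.8 and 8 lay under -0.8. ERGIC1, a protein that cycles between endoplasmic reticulum and Golgi, came first with r = 0.92 (rho 0.864, and 0.838 with each group centred on its mean). It had 89.0, 91.2, 90.2, 83.3 and 97.2 RPKM in PBS tumours T123 to T127 and 83.1, 86.6, 83.1, 88.2, 85.8 and 79.5 RPKM in A2M* tumours T128 to T132 and T112. Its highest and lowest tumours, PBS tumour T127 and A2M* tumour T112, were also those of MSMP.

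MUC5B came second with r = 0.89 (0.785 after centring). It had 281, 259, 285, 213 and 359 RPKM in the PBS tumours and 241, 235, 189, 234, 229 and 204 RPKM in the A2M* tumours, in the same order. PBS tumour T127 was again the highest. ALG5, an enzyme of N-glycan synthesis, followed with r = 0.89, IL18BP, a secreted decoy of interleukin-18, with 0.87, and DNAJC17, a co-chaperone, with 0.86 (0.716, 0.693 and 0.634 after centring). At the other end stood PIGX, of glycosylphosphatidylinositol anchor synthesis, at -0.87 (-0.934 after centring). ANGEL1, PIK3CB (the p110 beta subunit of PI3 kinase) and PSMD5, a proteasome assembly chaperone, had -0.85, -0.84 and -0.83. The choice of genes depended on the groups. Of the 5 highest, 0 were among the 20 highest after centring, and of the 5 lowest 1 was among the 20 lowest. It also rested on PBS tumour T127, without which 3 of the 5 highest and 2 of the 5 lowest stayed among the 20.

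**Figure D5:**
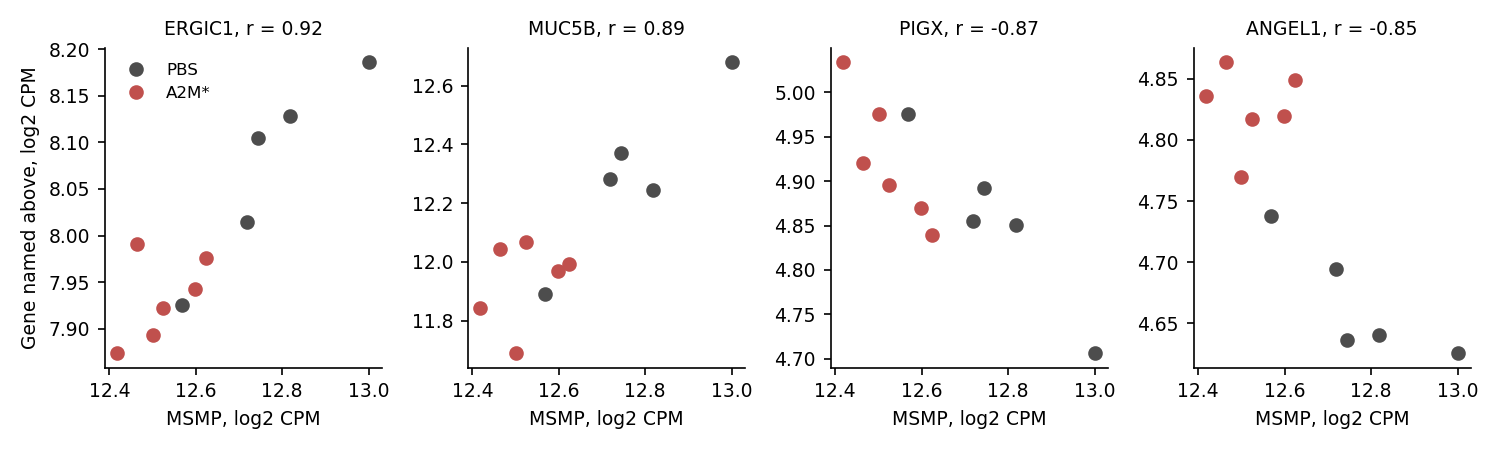
Log2 CPM of ERGIC1, MUC5B, PIGX and ANGEL1 (vertical axes) against log2 CPM of MSMP (horizontal axes) in the 11 tumours, PBS in grey and A2M* in red. PBS tumour T127 stands at the right end of each panel, with MSMP at 13.00.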

How the data were processed

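RNA of 11 PC-3 xenografts (5 PBS, 6 A2M*, grouped by the treatment in the labels) had been sequenced by the authors as single reads from TruSeq libraries, which do not mark strand, on a HiSeq2500. The authors demultiplexed with bcl2fastq 1.8.4, sorted reads by species with xenome, mapped to hg19 with TopHat2 and deposited whole-number counts per RefSeq gene (annotation of 2014) from featureCounts. Versions of xenome and featureCounts and the strand setting are not given in the sources used here. The deposited RPM are counts per 1e+06 counts of the tumour (largest difference on recalculation 4.99e-07), and the deposited RPKM divide RPM by gene length, which was constant over tumours for all 17501 genes checked. Mouse reads were not analysed here.

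Counts were filtered with filterByExpr (16630 genes kept, 22078 with a read), scaled by TMM (factors 0.958 to 1.03) and fitted in R 4.3.3 with edgeR 4.0.16 (quasi-likelihood test, no covariates), with Benjamini-Hochberg adjustment over all genes and a threshold of 0.01. The SE of a log2 fold change was derived as the estimate over the root of its F statistic. DESeq2 1.42.0, limma-voom (limma 3.58.1) and other scalings and filters were alternatives. The steps were tested on simulated data. Log2 CPM used a prior count of 2. Scores are mean z-scores of log2 CPM. MSMP and all gene lists were chosen with earlier results of these data known. Named were MSMP, the top 10 genes by mean RPM and by RPKM, CCR2 ligands, CC receptors, MSMB, genes within 250 kb, the 5 genes most and the 5 least like MSMP, luminal and host genes, and in every other list the 3 highest by RPKM and the 3 with the smallest p. Others, such as GDF15, ADM, ERP44, ERO1LB and MIF, were added after their values were seen. GRCh37 positions come from GENCODE (v44 lifted to this build), and promoters from RefSeq (GRCh38.p14). The values of 4 genes that this rule names are not reported here.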

Additional observations from a re-analysis of the deposited data

Results flagged for a closer look

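In 96 groups of values, each from the tumours of 1 treatment, 5 had a tumour far from the others by Dixon's criterion at 95%. Most groups held a gene's RPKM. The rest held shares and ratios of MSMP, total counts, the summed host cell markers and the hypoxia and secretory pathway scores. Chance alone marks about 1 in 20 independent groups, or 4.8 here. Several groups restate the same MSMP values, so the groups are not independent. PLAU reached 3088 RPKM in A2M* tumour T112, where it was the most counted gene, against 1361 to 1917 RPKM in the other 5 A2M* tumours. MIR6723 reached 8152 RPKM in A2M* tumour T132 against 4040 to 5338 RPKM. HSPA5 reached 588 RPKM in A2M* tumour T131 against 353 to 439 RPKM. ACKR2 reached 5.90 RPKM in A2M* tumour T128 against 4.92 to 5.03 RPKM. CCL2 reached 0.702 RPKM in PBS tumour T124 against 0.261 to 0.359 RPKM. No value of MSMP was among the 5.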

How the results depend on the processing

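The log2 fold change of MSMP was between -0.30 and -0.19 under all alternatives run for it. MSMP ranked first by mean RPM and mean RPKM with each tumour left out in turn, and by the medians over tumours. Its mean share was 0.758% of the total without the 100 most counted other genes, and the coefficient of variation between A2M* tumours was 6.72% with library sizes alone. DESeq2 called 1 gene, REP15, which was named after its value was seen. The edgeR likelihood ratio test also called 1 gene, and 241 genes reached an unadjusted p of 0.01 with edgeR and with DESeq2. Leaving out 1 tumour at a time, the genes of all lists at an unadjusted p under 0.05 numbered 9 to 30 and the neighbours 2 to 5. The mean r of the 5 genes most like MSMP, 0.886, was 0.789 by Spearman and 0.733 after centring, and that of the 5 least like it, -0.845, was -0.744 after centring. Signs turned for the host markers (r 0.334) and the hypoxia score (-0.00895) after centring and for the secretory score with log2 RPM (-0.175). With 1 tumour left out, r ranged from -0.106 to 0.207 for the secretory score and from -0.280 to 0.201 for the host markers, and the log2 fold change of CCL16 from -0.053 to 0.23. The causes were not tested. For part of the other named genes, 472 log2 fold changes were recomputed, and 471 kept their direction. None of these genes passed the adjusted threshold in the main fit or in any alternative, so staying on 1 side of it shows little. GDF15, ADM, ERGIC1 and MUC5B were not among the genes recomputed. No paired analysis was possible because the groups share no tumour numbers. Depth limits what can be said of CCR2, MSMB and CCL2, with few counts per tumour.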
